A study of Homo sapiens with 9 samples.

Results

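A pair of siRNAs designed against the same gene, KDM5A, were set against each other in MDA-MB-231, a mesenchymal-like line that was derived from human breast cancer. The cells were transfected with the first KDM5A siRNA (KD1), with the second (KD2) or with a luciferase siRNA as control (Luc), and total RNA was taken 72 h later. Each group had 3 Illumina bead arrays, so that the KD1 and KD2 means came from 6 of the 9 arrays of the series. The Luc arrays served to show the direction of a difference. They also entered the normalization and the estimate of the spread used in the test. A probe was a member when its detection p was under 0.05 on at least 3 of the 6 KD1 and KD2 arrays. Of 48799 probes, 14466 were members, and they gave 9603 genes with 1 probe each, the brightest one. The array annotation held 18850 gene symbols in all.

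KDM5A, also called RBP2 or JARID1A, is a demethylase of lysine 4 of histone H3, a residue whose trimethylated form marks active promoters. A small interfering RNA guides Argonaute proteins to a transcript of matching sequence, which is then cut, and it can also lower other transcripts that match only its short seed. Such partial matches depend on the sequence of each siRNA, which is why a study often uses more than 1 siRNA per target. The siRNA sequences are not analysed here. No probe carried the symbol KDM5A, so the extent of its knockdown by KD1 or KD2 is not analysed here either. Its relative KDM5B had log2 intensities of 10.50, 10.40 and 10.33 in KD1, 10.24, 10.23 and 10.20 in KD2 and 9.87, 10.02 and 9.97 in Luc. The KD1 and KD2 arrays of KDM5B did not overlap, but the difference of 0.18 did not pass the test (SE 0.11, adjusted p = 0.253 by limma).

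Between 14529 and 15110 probes were detected on the KD1 arrays, between 15370 and 15777 on the KD2 arrays and between 15679 and 17538 on the Luc arrays. Pearson correlations over the member probes were 0.985 to 0.989 within groups, 0.957 to 0.959 between KD1 and KD2 arrays, 0.967 to 0.972 between KD1 and Luc arrays and 0.964 to 0.968 between KD2 and Luc arrays. All 10 markers of MDA-MB-231 cells, among them VIM and CD44, were detected on every array. The luminal genes ESR1, PGR, FOXA1 and TFF3, the leukocyte genes CD3E, CD3G and TYROBP, the fibroblast genes COL1A2, COL3A1, LUM, FAP and THY1 and the endothelial genes CDH5, TEK and CLDN5 were detected on none. Other members were detected on every array: the luminal genes ERBB3, XBP1, KRT8, KRT18 and KRT19 and the leukocyte gene CD68. So were the fibroblast genes PDGFRA and ACTA2 and the endothelial genes PECAM1 and ESAM. Further members of each of these lists were detected on some arrays only. The arrays lay on 1 slide, with KD1 at positions G, I and K and KD2 at B, D and F, so slide position and siRNA cannot be told apart. Whether each array had its own culture is not given in the labels, so a p-value here covers the spread among these samples alone, and that spread may be technical. The summed intensity of the MDA-MB-231 markers was 85966 to 88347 in KD1, 111906 to 114359 in KD2 and 100730 to 104088 in Luc, and that of the luminal markers 4560 to 5291 in KD1, 6457 to 7778 in KD2 and 7567 to 8053 in Luc. The part of these shifts in the results was not tested.

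KD1 and KD2 cells differed widely. Of the member probes, 4397 (30.4%) passed a Benjamini-Hochberg adjusted p under 0.05 by limma, 2145 of them higher in KD1 (14.8%) and 2252 lower in KD1 (15.6%). A log2 fold change of at least 1 in size was reached by 1102 of these probes (7.62%), with 448 higher (3.1%) and 654 lower (4.52%) in KD1. Over genes, 3119 of 9603 were called (32.5%), 1469 higher in KD1 (15.3%) and 1650 lower (17.2%). With a log2 fold change of at least 1 in size, 773 genes were called (8.05%), 285 of them higher (2.97%) and 488 lower (5.08%). The KD1 and KD2 arrays did not overlap in 44.2% of all member probes and 47.1% of all genes. In the same fit, 18.4% of probes and 19.9% of genes were called for KD1 against Luc, and 24.8% of probes and 26.6% of genes for KD2 against Luc. In bulk RNA, fewer cells of a kind and less RNA per cell cannot be told apart. The median absolute log2 fold change over genes was 0.32 for KD1 against KD2, 0.26 for KD1 against Luc and 0.30 for KD2 against Luc, and all these contrasts share arrays.

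**Figure D1:**
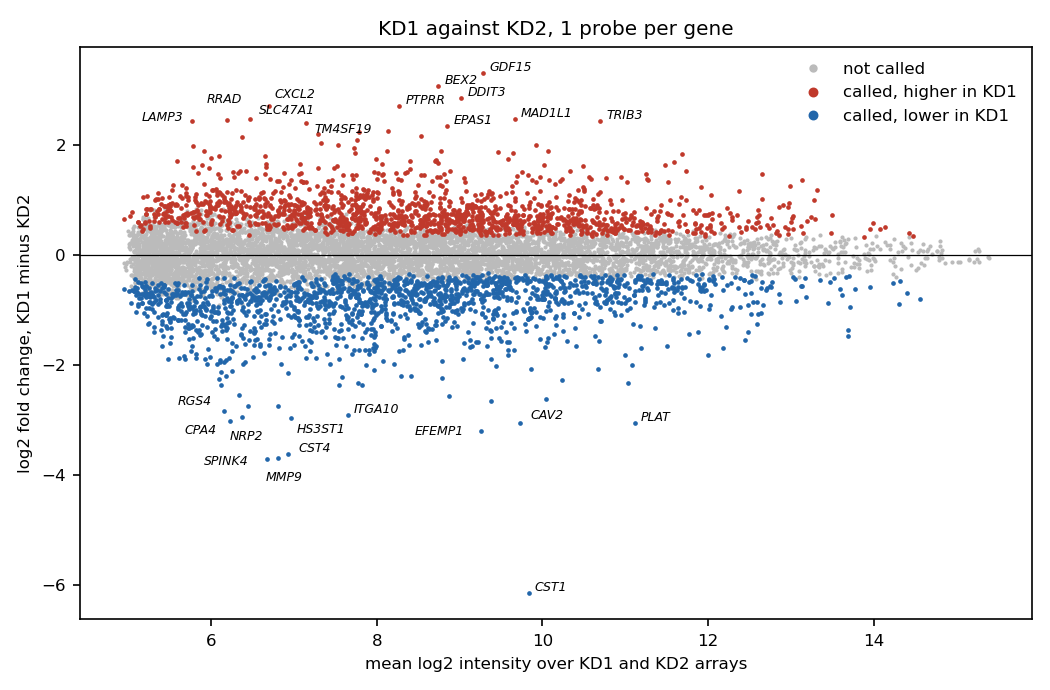
Log2 fold change of KD1 minus KD2 (y axis) against the mean log2 intensity over the KD1 and KD2 arrays (x axis) for 9603 genes, 1 probe per gene. Red points are the 1469 genes called higher in KD1, blue points the 1650 called lower in KD1 and grey points the genes not called; CST1, at -6.14, lies far below all others, and GDF15, at 3.30, is the highest.

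The Luc mean lay between the KD1 and KD2 means in 1990 of the 3119 called genes (63.8%), against 38.8% of all genes. It lay above both means in 638 called genes (20.5%) and below both in 491 (15.7%). Among genes called higher in KD1, the KD2 mean was the farther from Luc in 64.5%, and among genes called lower in KD1 in 51.3%. All genes gave 53.9%. No test was made of these shares, since the Luc position and the contrasts come from the same arrays. Calling also picks genes with a wide gap between KD1 and KD2, which by itself raises the share with Luc between them.

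Among 37 gene lists, which held 1247 measured genes, 448 genes were called, 197 higher and 251 lower in KD1. The lists lay on both sides of the 32.5% called among all genes. Genes induced by the transcription factor ATF4 were the most often higher in KD1, with 80% called. Protease inhibitors and matrix proteins were the most often lower in KD1, with 77.3% and 76.9% called in either direction. The spliceosome, with 11.5% called, and the list of KDM5 genes and other regulators of H3K4 methylation, with 12.9%, had the smallest shares. A share here describes the members that passed the detection filter, and a gene that passed it through the arrays of 1 siRNA alone had to differ. The lists named first and some others are therefore also given for genes detected on all 6 arrays. Over all genes, 8153 were detected on all 6, with 1342 called higher and 1391 lower in KD1.

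**Figure D2:**
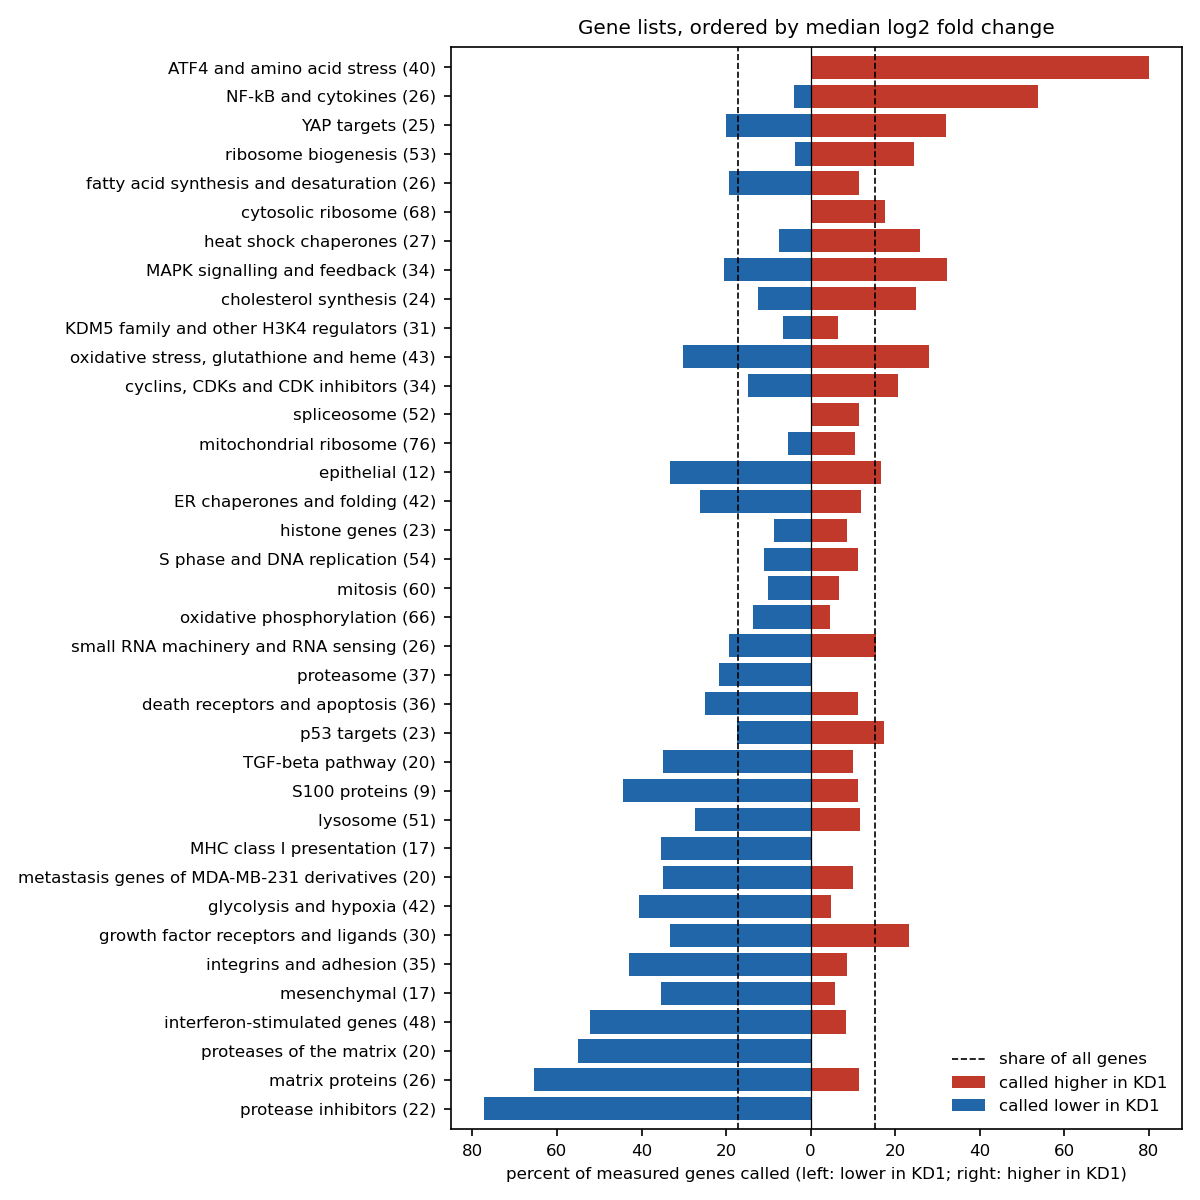
Percent of the measured genes of each list called higher in KD1 (red, to the right) or lower in KD1 (blue, to the left), with the number measured in parentheses and the lists ordered from the highest median log2 fold change (top) to the lowest (bottom). Dashed lines mark the shares over all 9603 genes, 15.3% higher and 17.2% lower; the ATF4 list stands at the top with 32 of 40 genes higher, and the protease inhibitors at the bottom with 17 of 22 lower.

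The ATF4 program was the main group of genes higher in KD1 than in KD2. ATF4 is a transcription factor whose protein is made when eIF2alpha is phosphorylated, as in amino acid shortage or endoplasmic reticulum stress. It switches on genes for amino acid synthesis, amino acid uptake and tRNA charging, and the genes of several stress regulators. Of 40 measured genes of this list, 32 were higher in KD1, none was lower (1 without KD1 replicate 2) and 8 were not called, with a median log2 fold change of 0.86 beside 0.01 over all genes. Among the 35 detected on all 6 arrays, 27 were higher and none was lower, with a median of 0.80. Averaged over the 40 genes, the log2 intensity was 10.50, 10.51 and 10.49 on the KD1 arrays, 9.56, 9.46 and 9.47 on the KD2 arrays and 10.61, 10.64 and 10.66 on the Luc arrays. The KD1 arrays thus stood near Luc and the KD2 arrays about 1 log2 unit below: the median difference from Luc was -0.11 in KD1 and -1.01 in KD2. The KD1 mean was below the Luc mean in 25 of 40 genes and the KD2 mean in 40 of 40, beside 4658 and 4642 of 9603 over all genes.

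GDF15, a secreted stress cytokine, had the largest log2 fold change of all genes higher in KD1. Its log2 intensities were 11.09, 10.80 and 10.90 in KD1, 7.90, 7.41 and 7.58 in KD2 and 10.55, 10.75 and 10.90 in Luc. The KD1 and Luc arrays overlapped and the KD2 arrays lay below all of them, and GDF15 was 9.85-fold higher in KD1 than in KD2 (log2 fold change 3.30, SE 0.16, adjusted p = 2.14e-06). DDIT3 encodes CHOP, the transcription factor that ATF4 induces under prolonged stress. It had 10.34, 10.67 and 10.30 in KD1, 7.80, 7.57 and 7.42 in KD2 and 10.49, 10.56 and 10.60 in Luc, and was 7.17-fold higher in KD1 than in KD2 (adjusted p = 3.06e-06). TRIB3, a pseudokinase induced by CHOP, averaged 11.91 ± 0.084 in KD1, 9.49 ± 0.21 in KD2 and 12.14 ± 0.22 in Luc (SD, n = 3 each) and was 5.36-fold higher in KD1 than in KD2. For DDIT3 and TRIB3 too, the KD2 arrays alone stood apart. ATF3, a repressor of the same network, had 8.77, 8.64 and 8.66 in KD1, 6.71, 6.65 and 6.89 in KD2 and 8.00, 8.24 and 8.34 in Luc, with the 3 groups apart from each other.

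The remaining genes of this list named here were chosen after their values were seen. CEBPG, a dimer partner of ATF4, was 1.99 higher in KD1 on the log2 scale, CEBPB 1.47 and PPP1R15A, the phosphatase subunit that reverses eIF2alpha phosphorylation, 1.82. NUPR1, a stress-induced chromatin protein, was detected on all 3 KD1 arrays and on no KD2 array, and was at least 3.05-fold higher in KD1. ATF4 itself had 13.22, 13.35 and 13.32 in KD1, 12.70, 12.76 and 12.63 in KD2 and 13.30, 13.42 and 13.40 in Luc. Its transcript was 1.52-fold higher in KD1 than in KD2 (log2 fold change 0.60, SE 0.11, adjusted p = 0.00306), less than most of the genes named above, though ATF4 is known to be controlled mainly at translation. Among the enzymes, asparagine synthetase ASNS was 1.18 higher in KD1, PHGDH of serine synthesis 1.46, PSAT1 of the same pathway 0.57 and the mitochondrial folate enzyme MTHFD2 0.89. CHAC1, which degrades glutathione, was 0.92 higher. Among the amino acid carriers SLC3A2, SLC1A5 and SLC1A4 were higher by 0.45, 0.47 and 0.72, while SLC38A2, SLC7A5, SLC7A11 and SLC6A9 were not called, with log2 fold changes of -0.31, 0.20, 0.28 and 0.36.

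Aminoacyl-tRNA synthetases, which charge tRNAs with amino acids, were compared as a family by symbol, a choice made after values were seen. Over all genes, 15.3% were called higher in KD1 and 17.2% lower. Of 16 cytosolic synthetases measured, 10 were higher in KD1, 1 was lower and 5 were not called. IARS1 had 12.41, 12.52 and 12.36 in KD1, 10.86, 10.83 and 10.57 in KD2 and 12.39, 12.40 and 12.52 in Luc, and was 1.68 higher in KD1 on the log2 scale. SARS1 was 1.35 higher, AARS1 1.24 and YARS1 1.08, and QARS1 was the 1 gene lower (-0.39). Of 16 mitochondrial synthetases, 6 were higher, 3 were lower and 7 were not called.

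**Figure D3:**
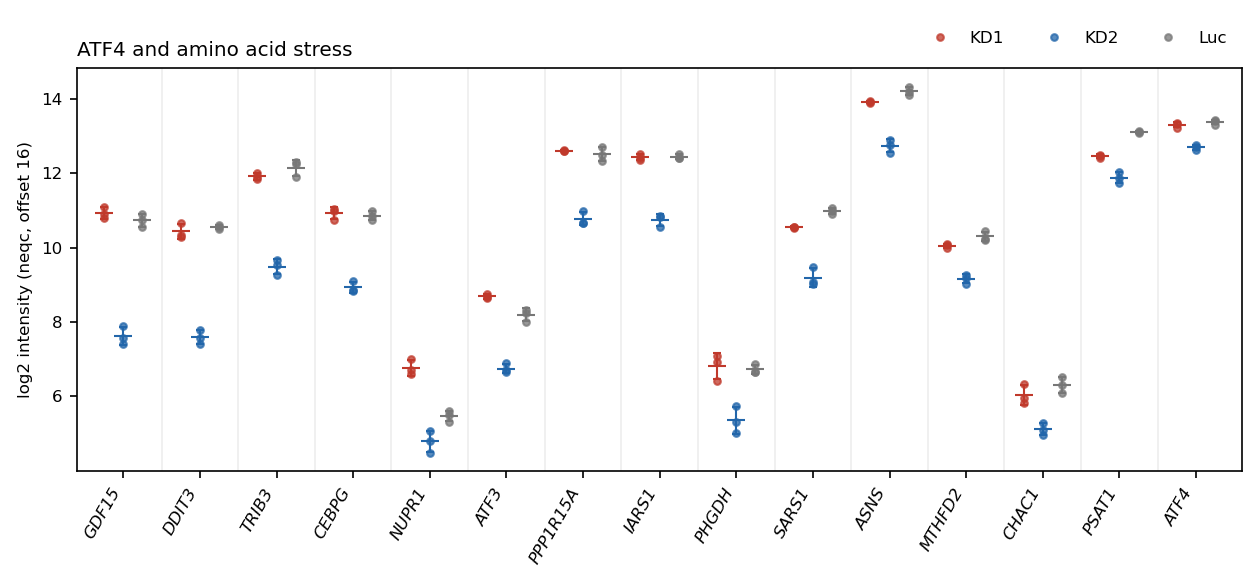
Log2 intensity (y axis) of 15 genes of the ATF4 list on each array: KD1 (red), KD2 (blue) and Luc (grey), with points for arrays and bars for the mean ± SD of 3 arrays. In GDF15, DDIT3, TRIB3, CEBPG and IARS1 the KD1 and Luc points lie together and the KD2 points below them; NUPR1 is higher in KD1 than in both other groups.

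The response element that C/EBP and ATF proteins bind together was looked for in the promoters, since the list is defined by their action. The letters TGATGNAA were searched on both strands in the 250 bases upstream of the RefSeq gene start, with promoters and coordinates from RefSeq on GRCh38.p14. They occurred in 3.19% of 27305 promoters, in 1.37% of the promoters of measured genes and in 5 of the 34 list genes with a promoter in the table (14.7%), AARS1, ASNS, ATF3, CHAC1 and IARS1. All 5 were called higher in KD1, as were 28 of the 34, so nothing about the match is read from this. The stretches below show the match in capitals for 4 of these genes, ASNS at chr7:97872439-97872506 (minus strand), ATF3 at chr1:212565186-212565253 (plus strand), IARS1 at chr9:92293698-92293740 (minus strand) and CHAC1 at chr15:40953232-40953299 (plus strand), each written 5′ to 3′ in the direction of the gene.
ASNS: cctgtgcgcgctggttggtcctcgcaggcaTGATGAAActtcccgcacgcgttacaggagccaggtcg
ATF3: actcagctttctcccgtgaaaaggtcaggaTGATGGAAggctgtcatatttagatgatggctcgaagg
IARS1: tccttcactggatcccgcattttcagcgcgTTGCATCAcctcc
CHAC1: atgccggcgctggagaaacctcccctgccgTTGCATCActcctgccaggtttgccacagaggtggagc
The ASNS and ATF3 matches read along the gene and the IARS1 and CHAC1 matches on the opposite strand. A match describes the letters only.

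Other genes with large log2 fold changes higher in KD1 were not on the ATF4 list. BEX2, of a family of small adaptor proteins, had 10.15, 10.11 and 10.57 in KD1, 7.46, 6.76 and 7.42 in KD2 and 9.85, 9.71 and 9.99 in Luc, and was 8.37-fold higher in KD1 than in KD2. EPAS1, which encodes the oxygen-sensing factor HIF-2alpha, had 10.09, 10.02 and 9.95 in KD1, 7.62, 7.72 and 7.70 in KD2 and 9.70, 10.06 and 10.04 in Luc, and was 5.05-fold higher. For EPAS1 the KD1 and Luc arrays overlapped, and for BEX2 the KD1 arrays lay just above Luc, so the larger departure from Luc was that of KD2. LAMP3, a lysosomal membrane protein, was detected on all KD1 and Luc arrays and on no KD2 array, and was at least 3.52-fold higher in KD1. In TM4SF19 the KD1 arrays alone stood apart. TM4SF19, a tetraspan membrane protein, had 8.53, 8.39 and 8.12 in KD1, 6.14, 5.73 and 5.97 in KD2 and 5.40, 5.89 and 6.12 in Luc. SLC47A1, an exporter of organic cations, had 7.74, 7.71 and 7.67 in KD1, 5.35, 5.30 and 5.05 in KD2 and 6.26, 5.95 and 6.10 in Luc, with KD1 above and KD2 below Luc, and MAD1L1, of the spindle checkpoint, was 2.46 higher in KD1 on the log2 scale. RRAD, a small GTPase, was detected on no KD2 array and was at least 4.76-fold higher in KD1. On the deposited log2 values RRAD was only 0.70, LAMP3 only 0.64 and SLC47A1 only 0.78 higher in KD1. SLC47A1 was detected on 2 of the 3 KD2 arrays. PTPRR, a phosphatase that acts on MAP kinases, was 2.70 higher by its brightest probe, but its other probe was not called (0.25, adjusted p = 0.326).

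Protease inhibitors were lower in KD1 than in KD2, led by the cystatins, which block cysteine proteases. Of 22 measured inhibitors, 17 were lower in KD1, none was higher and 5 were not called, with a median log2 fold change of -1.03. Among the 15 detected on all 6 arrays, 10 were lower and none was higher, with a median of -0.59. The median difference from Luc was -0.53 in KD1 and 0.59 in KD2, so the KD1 and KD2 medians lay on opposite sides of Luc. Averaged over the list, the log2 intensity was 8.21, 8.43 and 8.23 in KD1, 9.73, 9.71 and 9.70 in KD2 and 8.93, 8.94 and 8.99 in Luc, with the 3 groups apart.

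CST1, the gene of cystatin SN, had by far the largest difference of all genes. Its log2 intensities were 6.82, 6.75 and 6.70 in KD1, 12.89, 12.90 and 12.93 in KD2 and 8.58, 8.47 and 8.93 in Luc. KD1 lay 1.90 below Luc and KD2 4.25 above it on the log2 scale, and CST1 was 70.8-fold higher in KD2 than in KD1 (log2 fold change -6.14, SE 0.14, adjusted p = 6.95e-09). On the deposited log2 values the difference was -4.76. CST4, cystatin S, had 5.28, 5.18 and 4.91 in KD1, 8.88, 8.86 and 8.46 in KD2 and 5.50, 5.57 and 6.40 in Luc, and was detected on 1 of the 3 KD1 arrays. Its log2 fold change was -3.61, and -1.42 on the deposited values. CST2 was 1.87 lower in KD1, and was detected on 1 KD1 array, 3 KD2 arrays and no Luc array. CST1, CST2 and CST4 are near-identical genes on chromosome 20, so a probe of any of them may also bind transcripts of the others. CST3, a broadly expressed cystatin of the same chromosome, was also lower in KD1, by 1.48, as were CST7 (-1.19), CST6 (-0.59) and CSTB (-0.50). Of 8 cystatins measured, CST9 alone was not called, while 32.5% of all genes were called. CST2, CST3, CST6, CST7, CST9 and CSTB were named after their values were seen.

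SPINK4, a Kazal-type inhibitor of serine proteases, followed another course. It had 4.67, 4.80 and 4.99 in KD1, 8.75, 8.16 and 8.67 in KD2 and 9.55, 9.17 and 8.76 in Luc. It was detected on no KD1 array and on every KD2 and Luc array, and was at least 9.84-fold lower in KD1 than in KD2. On the deposited log2 values its difference was only -1.35. All 4 tissue inhibitors of metalloproteinases were lower in KD1, beside 17.2% of all genes. This family was chosen after its values were seen. TIMP3 had 6.40, 6.86 and 6.18 in KD1, 8.34, 8.71 and 9.03 in KD2 and 7.05, 7.21 and 6.95 in Luc. TIMP1, the brightest, had 12.84, 13.08 and 13.08 in KD1, 14.34, 14.33 and 14.46 in KD2 and 13.13, 13.19 and 13.26 in Luc, and was 2.59-fold higher in KD2. TIMP2 had a log2 fold change of -1.11, with KD1 below Luc and the KD2 and Luc arrays overlapping. TIMP4 was detected on no KD1 array and was at least 1.43-fold lower in KD1 than in KD2.

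Proteases of the matrix were lower in KD1 as well, with 11 of 20 measured genes lower, none higher and 9 not called (median -0.68). The share called was 55%, beside 32.5% of all genes. Among the 15 detected on all 6 arrays, 9 were lower and none was higher. MMP9, a gelatinase, had 5.14, 4.95 and 4.79 in KD1, 8.73, 8.64 and 8.58 in KD2 and 6.23, 6.06 and 6.68 in Luc. It was detected on no KD1 array, lay apart in each group and was at least 10.7-fold lower in KD1 than in KD2. On the deposited log2 values its difference was only -1.40. PLAT, tissue plasminogen activator, had 9.20, 9.81 and 9.75 in KD1, 12.60, 12.55 and 12.78 in KD2 and 10.51, 10.43 and 10.59 in Luc. It was 8.33-fold higher in KD2 than in KD1 (adjusted p = 3.57e-06). ADAM19, a membrane-bound metalloproteinase, had 9.11, 9.19 and 9.01 in KD1, 11.30, 11.51 and 11.33 in KD2 and 8.94, 9.38 and 9.44 in Luc, with KD2 alone apart. MMP11, PLAU and its receptor PLAUR were lower in KD1 by log2 fold changes of -1.32, -0.91 and -0.61, as was MMP14 with -0.88, and the collagenase MMP1 was not called (-0.05). These last genes were named after their values were seen. CPA4, a carboxypeptidase outside the list, was detected on no KD1 array and was at least 5.70-fold lower in KD1 than in KD2. On the deposited log2 values the CPA4 difference was only -0.91.

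**Figure D4:**
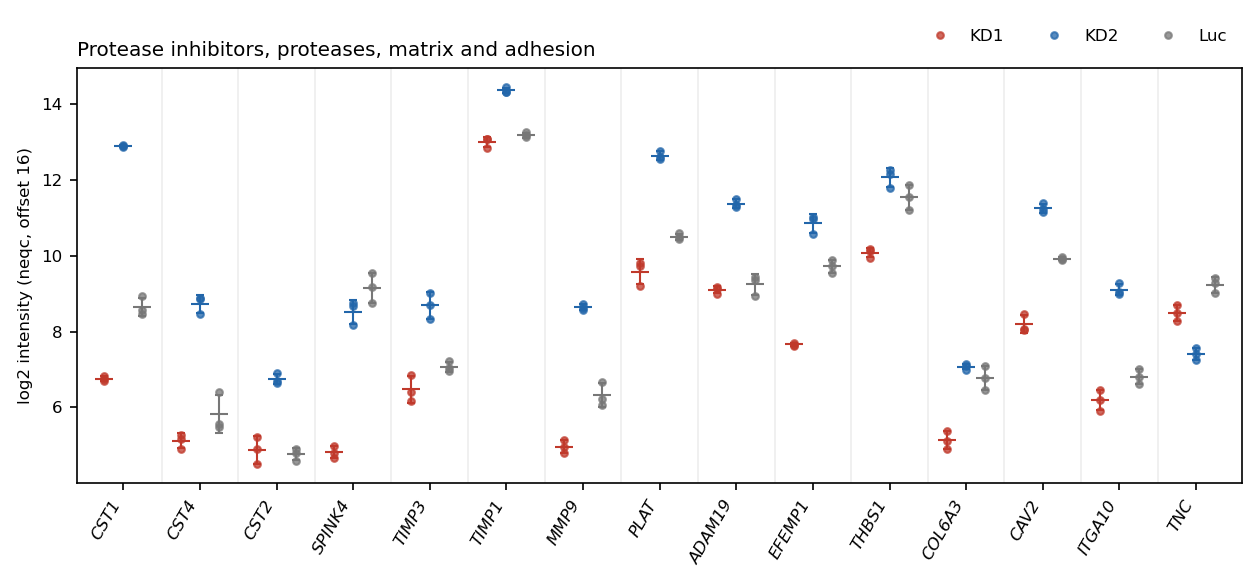
Log2 intensity (y axis) of 15 genes of protease inhibitors, proteases, matrix and adhesion on each array: KD1 (red), KD2 (blue) and Luc (grey), with points for arrays and bars for the mean ± SD of 3 arrays. CST1 spans the widest gap, with KD1 near 6.8, KD2 near 12.9 and Luc near 8.7; SPINK4 is low in KD1 alone, ADAM19 and ITGA10 high in KD2, and TNC is lowest in KD2.

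Matrix proteins were lower in KD1 than in KD2 as a rule. Of 26 measured, 17 were lower in KD1, 3 were higher and 6 were not called, with a median log2 fold change of -0.82. Among the 21 detected on all 6 arrays, 13 were lower and 2 were higher (median -0.65). Here the larger departure from Luc was in KD1, with a median difference of -0.73, against 0.35 in KD2. EFEMP1, or fibulin-3, had 7.70, 7.63 and 7.65 in KD1, 10.97, 11.02 and 10.58 in KD2 and 9.55, 9.74 and 9.88 in Luc, and was 9.17-fold higher in KD2. MATN2, the matrix linker matrilin-2, had 5.11, 5.43 and 4.63 in KD1, 7.82, 7.27 and 7.74 in KD2 and 8.72, 8.30 and 8.17 in Luc, and THBS1, thrombospondin 1, was 2.00 lower in KD1 on the log2 scale. MATN2 was below Luc in both siRNAs and further below in KD1, where it was detected on 1 of the 3 arrays. On the deposited log2 values its KD1 minus KD2 difference was -0.78 in place of -2.55. Of 14 collagen genes, a family chosen after its values were seen, 9 were lower in KD1, 1 was higher and 4 were not called. Over all genes, 17.2% were lower and 15.3% higher. COL6A3, of collagen VI, was 1.94 lower, COL8A1 1.66 lower and COL12A1 1.04 higher.

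TNC, the matrix glycoprotein tenascin C that has been tied to lung metastasis of this line, went the other way. It had 8.49, 8.70 and 8.27 in KD1, 7.56, 7.26 and 7.41 in KD2 and 9.41, 9.01 and 9.28 in Luc. Both siRNAs lay below Luc, by 0.75 in KD1 and 1.82 in KD2, and TNC was 2.11-fold higher in KD1 than in KD2 (log2 fold change 1.08, SE 0.16, adjusted p = 0.000763). LOX, the lysyl oxidase that crosslinks collagen, was 2.99-fold higher in KD2, with KD2 at 9.91, 10.10 and 9.94 and Luc at 9.72, 9.82 and 9.84, above the 8.51, 8.37 and 8.33 of KD1. On the list of metastasis genes of MDA-MB-231 derivatives, 7 of 20 were lower in KD1 and 2 were higher (45% called, beside 32.5% of all genes). The higher count was 1 without KD1 replicate 1, KD1 replicate 3 or KD2 replicate 3. Among the lower ones, the chemokine receptor CXCR4 was detected on no KD1 or Luc array and was at least 2.29-fold lower in KD1 than in KD2. On the deposited log2 values the CXCR4 difference was only -0.45. Of the 14 genes of this list detected on all 6 arrays, 6 were lower in KD1 and 1 was higher.

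Adhesion genes were lower in KD1 in 15 of 35 cases, higher in 3 and not called in 17 (median -0.33). The share called was 51.4%, beside 32.5% of all genes. CAV2, caveolin 2, had 8.06, 8.48 and 8.05 in KD1, 11.15, 11.38 and 11.24 in KD2 and 9.90, 9.97 and 9.91 in Luc. It was 8.35-fold higher in KD2, and both of its other probes were called in the same direction. Of 6 caveola genes, a family chosen after its values were seen, 5 were lower in KD1, among them CAVIN2 (-1.89) and CAV1 (-0.42). Over all genes, 17.2% were lower. ITGA10, a collagen-binding integrin subunit, had 6.21, 5.91 and 6.45 in KD1, 9.28, 9.05 and 9.00 in KD2 and 6.81, 7.01 and 6.61 in Luc, with KD2 far above both other groups. ITGB2, the leukocyte integrin subunit, was 1.00 higher in KD1, and both siRNAs were below Luc, by 1.39 in KD1 and 2.40 in KD2. PTK2, the focal adhesion kinase, was 0.92 higher in KD1 by its brightest probe, while its other probe was not called.

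Growth factor receptors and their ligands split, with 7 of 30 higher in KD1 and 10 lower (56.7% called, beside 32.5% of all genes). Among the 26 detected on all 6 arrays, 7 were higher and 8 lower. EGFR had 9.30, 9.27 and 9.20 in KD1, 7.60, 7.98 and 7.85 in KD2 and 9.23, 9.46 and 9.58 in Luc, and was 2.72-fold higher in KD1. Its other, separate probe was not called (0.05, adjusted p = 0.915). Its ligand TGFA was 2.15-fold higher in KD1. NRP2, a co-receptor of VEGF-C and semaphorins, had 5.02, 5.01 and 4.64 in KD1, 7.91, 7.73 and 7.91 in KD2 and 6.44, 5.55 and 5.13 in Luc, and was at least 6.15-fold lower in KD1. IGFBP3, which binds insulin-like growth factors, had 6.25, 6.62 and 6.20 in KD1, 8.80, 8.86 and 8.50 in KD2 and 9.30, 9.00 and 9.05 in Luc, so KD1 lay far below and KD2 slightly below Luc. In the family of IGF binding proteins, chosen after its values were seen, 4 of 5 were lower in KD1, beside 17.2% of all genes. IGFBP1 was not called (-0.73). PDGFRB was detected on no KD1 array and was at least 2.65-fold lower in KD1. HS3ST1, a heparan sulfate sulfotransferase outside the list, was 2.96 lower in KD1 on the log2 scale, and RGS4, which shortens G protein signals, was detected on no KD1 array and was at least 5.08-fold lower in KD1. On the deposited log2 values the differences of NRP2, PDGFRB, RGS4 and HS3ST1 were only -0.93, -0.44, -0.83 and -1.16. HS3ST1 was detected on 2 of the 3 KD1 arrays.

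Interferon-stimulated genes were lower in KD1 than in KD2. These genes encode antiviral proteins and are switched on by the ISGF3 complex downstream of the interferon receptors. Double-stranded RNA, siRNAs included, is known to be able to set off this response. Of 48 measured genes, 25 were lower in KD1, 4 were higher and 19 were not called, with a median log2 fold change of -0.64. The share called was 60.4%, beside 32.5% of all genes. Among the 41 detected on all 6 arrays, 24 were lower and 4 higher. Averaged over the 48 genes, the log2 intensity was 7.77, 7.74 and 7.73 in KD1, 8.34, 8.39 and 8.36 in KD2 and 8.23, 8.20 and 8.20 in Luc. The median difference from Luc was -0.31 in KD1 and 0.15 in KD2. The 4 higher genes were PARP12, SP100, ADAR and IRF1, with log2 fold changes of 0.64, 0.60, 0.46 and 0.41. IRF1 was named after its value was seen. SP100 and ADAR each had 1 other probe, which was not called higher in KD1. The count of 4 was 1 or 2 without the detection filter, with the KD1 and KD2 arrays alone or with a replicate block. It was also 1 or 2 without any 1 of the KD1 and KD2 arrays.

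ISG15, a ubiquitin-like modifier, had 7.81, 7.80 and 7.87 in KD1, 9.36, 9.46 and 9.43 in KD2 and 9.29, 9.18 and 9.21 in Luc. It was 3.01-fold higher in KD2 than in KD1 (log2 fold change -1.59, SE 0.11, adjusted p = 1.17e-05), with KD1 1.40 below Luc and KD2 0.19 above it. IFIT2, which binds viral RNA, had 7.48, 7.60 and 7.65 in KD1, 9.14, 9.21 and 9.30 in KD2 and 9.64, 9.46 and 9.43 in Luc. IFIT1, of the same family, had 6.99, 7.17 and 7.03 in KD1, 8.22, 8.35 and 8.10 in KD2 and 9.30, 8.65 and 9.03 in Luc. IFIT1 and IFIT2 were thus below Luc in both siRNAs. OAS2, which senses double-stranded RNA, and IRF7, a transcription factor of the interferon response, lay on opposite sides of Luc. OAS2 had 6.12, 6.58 and 6.29 in KD1, 8.05, 8.21 and 8.33 in KD2 and 7.60, 7.58 and 7.29 in Luc, and IRF7 was 3.31-fold higher in KD2 than in KD1. Both chains of the type I interferon receptor were lower in KD1, IFNAR1 with a log2 fold change of -1.23 and IFNAR2 with -1.19, and so was MYD88, an adaptor of Toll-like receptors, with -1.22. Genes of MHC class I presentation, many of them also interferon targets, were lower in KD1 in 6 of 17 cases and higher in none. These are 35.3% of the list, beside 17.2% of all genes called lower and 32.5% called in either direction. TAP2, a subunit of the peptide transporter, had 7.75, 8.06 and 7.65 in KD1, 9.77, 9.80 and 9.68 in KD2 and 9.96, 9.86 and 9.66 in Luc, with KD1 alone apart.

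The interferon-stimulated response element, GAAANNGAAA, was searched on both strands in the same 250 bases, to show a regulatory sequence that a part of these genes carry. It occurred in 3.07% of all promoters, in 2.43% of the promoters of measured genes and in 21 of the 39 list genes with a promoter in the table. Among the 21 of these genes called lower in KD1, 14 held it, as did 1 of the 4 called higher and 6 of the 14 not called. These shares were not tested, and nothing about the match is read from them. The matches are in capitals for ISG15 at chr1:1013354-1013429 (plus strand), IFIT1 at chr10:89392477-89392559 (plus strand) and IFI6 at chr1:27672246-27672378 (minus strand).
ISG15: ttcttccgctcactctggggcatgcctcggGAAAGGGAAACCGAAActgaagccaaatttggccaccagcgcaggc
IFIT1: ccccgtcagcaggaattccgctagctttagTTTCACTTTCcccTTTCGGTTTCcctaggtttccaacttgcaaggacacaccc
IFI6: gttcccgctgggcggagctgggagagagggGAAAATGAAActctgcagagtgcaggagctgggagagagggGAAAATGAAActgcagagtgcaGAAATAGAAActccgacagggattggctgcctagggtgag
In ISG15 a pair of matches overlapped, IFIT1 had 2 on the opposite strand and IFI6 had 3. IFI6, chosen here for its 3 matches, was 1.06 lower in KD1 on the log2 scale, with KD2 0.05 above Luc.

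Genes of NF-kB and inflammatory cytokines were mostly higher in KD1. NF-kB is a family of transcription factors held in the cytoplasm by IkB proteins, and its targets include cytokines and its own subunits and inhibitors. Of 26 measured genes, 14 were higher in KD1, 1 was lower and 11 were not called, with a median log2 fold change of 0.56. The share called was 57.7%, beside 32.5% of all genes. The median difference from Luc was 0.36 in KD1 and 0.05 in KD2. CXCL2, a neutrophil chemokine, had 8.21, 8.16 and 7.75 in KD1, 5.32, 4.89 and 5.84 in KD2 and 6.92, 7.38 and 7.32 in Luc, and was 6.46-fold higher in KD1 than in KD2. On the deposited values its log2 fold change was 0.94 in place of 2.69. CXCL8, or interleukin 8, had 12.65, 12.58 and 12.38 in KD1, 11.29, 11.33 and 11.29 in KD2 and 12.23, 12.15 and 12.15 in Luc. For both chemokines the KD1 arrays lay above Luc and the KD2 arrays below it. CXCL1 was 1.00 higher in KD1 (adjusted p = 0.0269), and this call was lost without KD1 replicate 1 (0.0839), KD1 replicate 3 (0.0892) or KD2 replicate 3 (0.0950). IL6 was 0.98 higher in KD1, and the subunits NFKB1, NFKB2 and RELB were higher by 0.81, 0.74 and 0.84, as were the inhibitors NFKBIA, NFKBIB and NFKBIE by 0.51, 0.92 and 0.91. RELA was not called (0.07). The 1 gene lower in KD1 was BIRC2, a ubiquitin ligase that restrains the non-canonical pathway (-0.88). The subunits, inhibitors and IL6 were named after their values were seen.

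The kappaB letters GGGNNTTTCC occurred in 1.73% of all promoters, in 2.11% of those of measured genes and in 7 of the 22 list genes with a promoter in the table. Among the 12 called higher in KD1, 5 held them, and so did 2 of the 9 not called. Nothing about the match is read from these counts. CXCL2 at chr4:74099234-74099303 (minus strand), CXCL1 at chr4:73869284-73869353 (plus strand) and IL6 at chr7:22727097-22727166 (plus strand) are shown with the match in capitals, which lies along the gene in each.
CXCL2: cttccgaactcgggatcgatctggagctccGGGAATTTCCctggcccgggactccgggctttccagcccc
CXCL1: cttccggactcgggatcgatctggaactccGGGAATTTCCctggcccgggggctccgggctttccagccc
IL6: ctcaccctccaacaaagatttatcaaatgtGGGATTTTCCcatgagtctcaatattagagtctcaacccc

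**Figure D5:**
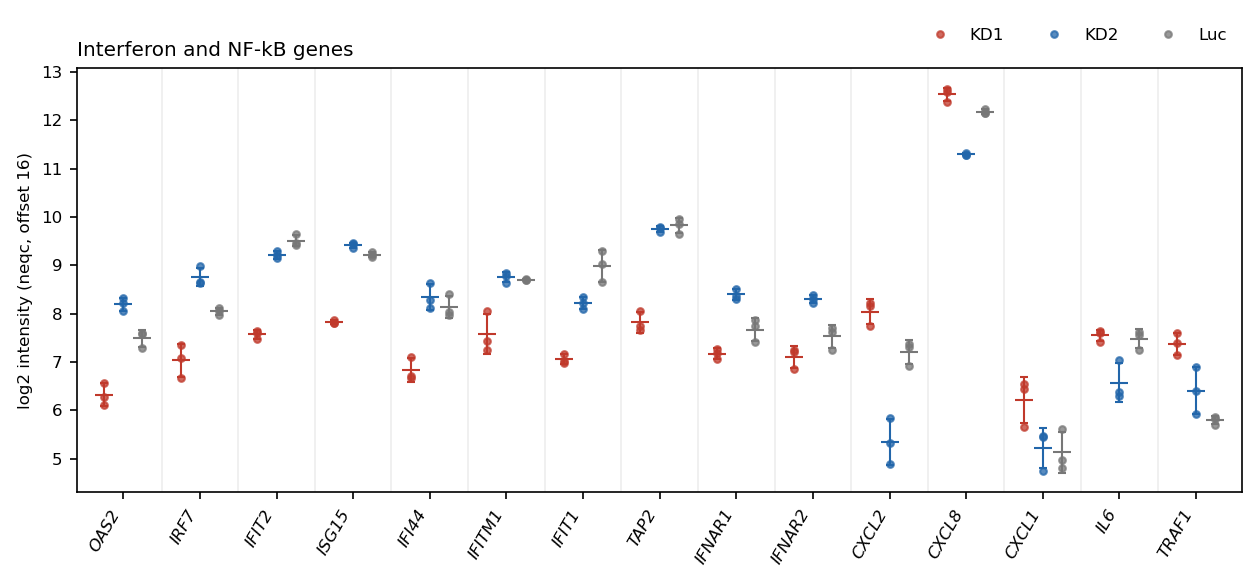
Log2 intensity (y axis) of 10 genes of interferon response, interferon receptor and antigen presentation and 5 genes of NF-kB and cytokines on each array: KD1 (red), KD2 (blue) and Luc (grey), with points for arrays and bars for the mean ± SD of 3 arrays. From OAS2 to IFNAR2 the KD1 points lie below the KD2 points, and from CXCL2 to TRAF1 above them.

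Of 43 measured genes of oxidative stress, glutathione and heme, 12 were higher in KD1, 13 were lower and 18 were not called. The share called was 58.1%, beside 32.5% of all genes. Metallothioneins, which bind zinc and copper, were lower in KD1 in 6 of 6 measured genes, beside 17.2% of all genes. This family was chosen after its values were seen. MT1F had 8.79, 8.76 and 8.92 in KD1, 11.15, 10.70 and 10.86 in KD2 and 8.65, 8.70 and 8.37 in Luc, with KD2 far above both other groups. The 6 genes have similar sequences, so their probes could share transcripts. HMOX1, heme oxygenase 1, was above Luc in both siRNAs and 1.97-fold higher in KD2 than in KD1, having 9.23, 9.26 and 9.35 in KD1, 10.14, 10.36 and 10.28 in KD2 and 6.76, 6.46 and 6.64 in Luc. Catalase, CAT, was 1.08 lower in KD1. Among the higher genes, GCLC, which makes the first step of glutathione synthesis, was 1.07 higher in KD1 and GSR, glutathione reductase, 1.05, although the other GSR probe was not called. GCLC had 8.23, 8.49 and 8.12 in KD1, 7.27, 7.42 and 6.95 in KD2 and 7.20, 7.28 and 7.24 in Luc, with KD1 alone apart. TXNRD1 and NQO1, named after their values were seen, were higher by 0.71 and 0.72.

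Glycolysis and hypoxia genes were lower in KD1 in 17 of 42 cases and higher in 2, with a median of -0.31 (45.2% called, beside 32.5% of all genes). ANKRD37 and PFKFB4, both hypoxia-induced, were lower by log2 fold changes of -1.50 and -1.15, and the glycolytic enzymes PKM, PGK1 and LDHA, named after their values were seen, by -0.69, -0.66 and -0.63. The 2 higher genes were EPAS1, given above, and VEGFA (0.57), of which another probe was not called. The VEGFA call was lost without KD1 replicate 1 (adjusted p = 0.0573) or KD2 replicate 1 (0.0512), which left 1 higher gene. MAP kinase genes split, with 11 of 34 higher and 7 lower (52.9% called), and the 11 became 7 without KD1 replicate 3. Among the 32 detected on all 6 arrays, 9 were higher and 7 lower. SPRY1, a feedback inhibitor of receptor signalling, had 9.95, 10.08 and 10.25 in KD1, 11.92, 12.04 and 11.77 in KD2 and 10.75, 10.92 and 10.97 in Luc, and the AP-1 subunit FOSB was detected on no KD2 array and was at least 2.01-fold higher in KD1. On the deposited log2 values FOSB was only 0.28 higher in KD1. Lysosomal genes were called in 39.2% of 51 cases, beside 32.5% of all genes, 14 lower and 6 higher in KD1, and 3 were higher without KD2 replicate 2. The cathepsins CTSZ (-1.31) and CTSF (-1.25) were lower and the sulfatase SGSH (1.16) higher. TGF-beta pathway genes were lower in 7 of 20 cases, among them PMEPA1 (-1.58) and the activin antagonist FST (-1.39), and higher in 2 (45% called). The lower count was 4 without KD1 replicate 1 or KD2 replicate 2, and the higher count was 1 without KD2 replicate 2 or KD2 replicate 3.

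Ribosome biogenesis genes were called in 28.3% of 53 cases, below the 32.5% of all genes, 13 higher and 2 lower in KD1. The lower count was 0 or 1 without any 1 of KD1 replicates 2 and 3, the KD2 replicates and Luc replicate 2. NOB1, of late small-subunit maturation, had 8.79, 8.97 and 8.90 in KD1, 7.10, 7.17 and 7.45 in KD2 and 8.35, 8.52 and 8.67 in Luc. Of 68 cytosolic ribosomal proteins, 12 were higher, led by RPL37 (1.67) and RPL13A (1.04), and none was lower (1 without KD2 replicate 3). These 12 are 17.6% of the list, near the 15.3% of all genes called higher, and the count ran from 8 to 21 over the settings tried. Proteasome genes were lower in KD1 in 8 of 37 cases (21.6%, beside 17.2% of all genes) and higher in none, with PSMB6 (-0.58), PSMD4 (-0.51) and PSMB2 (-0.50) the largest in size. The 8 became 3 to 5 without any 1 of the KD2 arrays or KD1 replicates 2 and 3. Chaperones of the endoplasmic reticulum were called in 38.1% of 42 cases, beside 32.5% of all genes, 11 lower and 5 higher. The lower count was 7 without KD1 replicate 2, KD1 replicate 3 or KD2 replicate 3, and the higher count was 9 without background correction. CANX, calnexin, had 10.31, 10.66 and 10.38 in KD1, 8.82, 8.63 and 8.71 in KD2 and 11.04, 10.90 and 10.92 in Luc and was higher in KD1 than in KD2, and the thioredoxin-related TMX1 was 1.51 lower in KD1.

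Of the cell cycle lists, mitosis and S phase were called less often than all genes, and the list of cyclins, CDKs and CDK inhibitors about as often, in 35.3% of 34 cases, 7 higher and 5 lower. Mitosis genes were called in 16.7% of 60 cases, 4 higher and 6 lower in KD1, and S phase genes in 22.2% of 54, 6 in each direction, beside 32.5% of all genes. These counts moved when 1 array was left out. S phase had as few as 2 higher (without KD1 replicate 1 or KD1 replicate 2) and 3 lower (without KD1 replicate 2 or KD2 replicate 3), and 13 lower without background correction. Mitosis had 1 higher without KD1 replicate 1, KD1 replicate 2 or any 1 of the KD2 arrays. The cyclin list had 4 higher without KD1 replicate 2 or KD2 replicate 3, and 3 lower without KD1 replicate 1, KD1 replicate 3, KD2 replicate 2 or KD2 replicate 3. CDK6 had 11.31, 11.30 and 11.25 in KD1, 9.62, 9.68 and 9.76 in KD2 and 11.02, 11.40 and 11.14 in Luc, with KD2 alone apart. CCNA1, cyclin A1, had 7.59, 7.59 and 7.57 in KD1, 9.03, 9.23 and 8.96 in KD2 and 6.63, 6.31 and 6.47 in Luc, so both siRNAs lay above Luc and KD2 further. The CDK inhibitor CDKN1A was above Luc by 0.70 in KD1 and by 1.22 in KD2 and was 1.44-fold higher in KD2 (adjusted p = 0.00635). Oxidative phosphorylation genes were called in 18.2% of 66 cases and mitochondrial ribosomal proteins in 15.8% of 76. Both shares depended on the processing. The mitochondrial ribosomal proteins had 8 higher and 4 lower in KD1. These counts became 14 and 11 without background correction, and 13 and 13 on the deposited values. The 9 oxidative phosphorylation genes lower in KD1 became 17 on the deposited values. They became 3 to 5 without any 1 of the KD1 arrays, KD2 replicate 1 or KD2 replicate 3. The 3 higher became 0 without KD1 replicate 3 or KD2 replicate 3. Of 31 KDM5 genes and other regulators of H3K4 methylation, WDR5 (0.51) and KMT2C (0.77) were higher and ASH2L (-0.63) and MORF4L1 (-0.38) lower. Of these calls only that of ASH2L held in every setting tried. MORF4L1 was lost without any 1 of the KD1 and KD2 arrays (adjusted p between 0.0546 and 0.129) and with a replicate block (0.0631). WDR5 was lost without KD2 replicate 2 (0.0521) or KD2 replicate 3 (0.0685), and KMT2C without KD1 replicate 3 (0.0584) or KD2 replicate 2 (0.0603). VIM, the mesenchymal filament vimentin, was not called (-0.36, adjusted p = 0.0617), but passed in 6 other settings, among them the deposited values (0.00580).

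Apoptosis genes were called in 36.1% of 36 cases, near the 32.5% of all genes, 9 lower and 4 higher in KD1. APAF1, the scaffold of the apoptosome, had 7.30, 6.89 and 6.58 in KD1, 9.09, 9.11 and 8.84 in KD2 and 7.65, 7.79 and 7.61 in Luc. CASP9, the caspase that APAF1 activates, was 1.40 lower in KD1 and the death receptor TNFRSF10A 1.35 lower, while its decoy relative TNFRSF10D was 0.73 higher. The TNFRSF10D call was lost without KD1 replicate 1, KD1 replicate 3 or KD2 replicate 1 (adjusted p between 0.0522 and 0.0528). BCL2, which blocks apoptosis, was 0.92 higher in KD1 by its brightest probe, and its other probe was not called. Genes of small RNA handling were called in 34.6% of 26 cases, near the share of all genes, 4 higher (2 without KD2 replicate 2) and 5 lower. The nuclear exporter of microRNA precursors XPO5 was 0.74 higher in KD1, and the Argonaute gene AGO1 0.57 higher.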

How the data were processed

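The deposited non-normalized table gives, per the file headers, a linear signal intensity and a detection p-value per probe and array. The authors' deposited series values are on a log2 scale, and the submitters' processing notes name lumi (version not given in the sources used here). Their median was 7.602 on every array. RNA was extracted with a column kit and labelled as biotinylated cRNA, per the labels' protocols.

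Intensities of all 9 arrays were processed in limma 3.58.1 (R 4.3.3) with neqc, which corrects background by a normal-exponential model fitted through the detection p-values, adds an offset of 16, quantile-normalizes and takes log2. A model with 1 mean per group was fitted with lmFit and eBayes (6 residual and 10.3 total degrees of freedom, median residual SD 0.213), and KD1 minus KD2 was tested, two-sided, with Benjamini-Hochberg adjustment over the 14466 member probes; a call is an adjusted p under 0.05. Every adjusted p in the text comes from this limma fit. With 3 arrays on each side, the smallest exact permutation p is 0.1, so no such test was used. Where a group had detection on no array, only a lower bound of the fold is given, set by the dimmest detected probes on the neqc scale. Such a bound holds for that scale and offset only. The deposited values gave smaller differences in the genes where both are given. Levels were not compared between probes.

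Symbols came from the platform annotation, updated through RefSeq (GRCh38.p14): 28055 probes were updated and 39 kept; 12310 member probes had 1 symbol, 2154 none and 2 several. The 1159 probes detected on exactly 3 of the 6 arrays, just inside the filter, had a median log2 intensity of 5.21, and the 1998 detected on exactly 2, just outside, 5.04.

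The naming rule covered, in each direction, 12 genes of largest log2 fold change whose KD1 and KD2 arrays did not overlap, up to 3 called genes per list and direction, and KDM5B, TNC, CST1, CST4, SPINK4, HMOX1, IFIT1, ISG15, CDKN1A and VIM; KDM5A had no probe by symbol and KDM5C was not a member. The text gives a part of these genes and marks those chosen after their values were seen. Members, lists and this rule were chosen with earlier results of these data known, so list counts are descriptions. The procedure was tested on simulated data. Correlations of deviations from the group means were -0.02 to 0.13 between same-numbered arrays and -0.11 to 0.07 between differently numbered ones. With 3 arrays per group, these ranges cannot decide whether the replicate numbers pair the arrays. The main fit did not pair them. Alternatives covered the arrays fitted, background, normalization, the deposited values, detection filter, offset, replicate block, variance model, probe choice and each array left out.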

Additional observations from a re-analysis of the deposited data

How the results depend on the processing

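The number of called probes, 4397, ran from 3288 with no detection filter to 4983 with a trended, robust variance, and stayed within 1.5 times in every setting tried. Leaving out 1 array gave 3455 to 4282 calls, 1087 to 1175 calls with a log2 fold change of at least 1 in size, and 362 to 439 called list genes. With the replicate number as a block, 4249 probes, 1098 of them by at least 1, and 425 list genes were called. The KD1 and KD2 arrays alone, without Luc, gave 4004 called probes, 1072 of them by at least 1, and 409 list genes. Fold sizes depended on the background: the 1102 calls of at least 1 became 324 without background correction, 226 on the deposited log2 values and 624 with an offset of 50. In the 186 called named genes the deposited log2 fold change was in median 67.1% of the log2 fold change reported, from 19.3% to 103%. Median scaling gave 51.9% of calls higher in KD1, against 48.8%, and shifted the median of all probes to 0.05. Of 3362 values of named genes over the alternatives, 3163 kept sign and side of the threshold, and 150 of the 186 called genes kept their call in every setting. Demanding detection on all 6 arrays lowered the protease inhibitors called from 17 to 10. Arrays carry no read depth: dim probes near background, with only 3 arrays per group, limit the precision.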
